A study of Mus musculus with 9 samples.

Results

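The target and the ventral region of the mouse brainstem were compared by gene expression arrays, with 3 arrays of each region, which are 6 of the 9 arrays of the series. The other 3 arrays are of a dorsal region and entered only the quantile scaling and the estimate of the spread, and served as a reference. Each target array has a ventral array from the same mouse (mouse 1, 2 or 3). All mice were male, 8 weeks old and of the strain Chat-Cre:Ai9, so both regions and the dorsal one share the same alleles. In Chat-Cre mice Cre recombinase is made in cells that use Chat, whose enzyme makes acetylcholine, and the Ai9 reporter turns such cells red with tdTomato. No group received a treatment. The labels and design text do not state what the target region contained, how the regions were dissected or whether the reporter guided this. Of 45281 probes on the array, 18194 had a detection score above 0.95 on at least 3 of the 6 arrays and were tested. They stand for 12801 genes.

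The title of the series names neurotensin neurons of the brainstem and sleep. Neurotensin is a neuropeptide, cut from a larger precursor inside secretory vesicles and released beside fast transmitters such as glutamate or GABA. It acts on the G protein-coupled receptors encoded by Ntsr1 and Ntsr2, and it also binds sortilin, a sorting receptor encoded by Sort1. The brainstem holds many small nuclei that differ in their transmitters and peptides: noradrenergic cells of the locus coeruleus make galanin, and the parabrachial nucleus and cranial motor nuclei make CGRP. Sleep and waking are among the functions tied to these nuclei.

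Levels below are log2 values after background correction and quantile scaling, and a difference is the target mean minus the ventral mean on that scale, with its SE from limma and the p-value adjusted by Benjamini-Hochberg over all 18194 probes. A probe was called when that p-value was below 0.05. An array was above background for a probe when the detection score, which compares the probe with the negative control beads of the array, exceeded 0.95. On the target arrays 16842 to 19172 probes were above background, and on the ventral arrays 16703 to 18645 (exact permutation test, two-sided p = 0.4, where 3 against 3 arrays cannot go below 0.1). Over the tested probes pairs of target arrays correlated at 0.946 to 0.96, pairs of ventral arrays at 0.923 to 0.938 and target with ventral arrays at 0.893 to 0.943. With 3 arrays a region, precision is limited throughout.

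Both tissues carried markers of brainstem neurons and glia at like levels. Slc17a6, the vesicular glutamate transporter gene, read 12.13, 12.15 and 12.10 on target arrays 1 to 3 and 11.87, 12.01 and 11.84 on ventral arrays 1 to 3 (difference 0.22, SE 0.15, adjusted p = 0.494). Gad2, which encodes a GABA-synthesizing enzyme, read 11.94, 11.82 and 12.04 against 11.79, 11.71 and 11.89 (0.14, SE 0.16, adjusted p = 0.714). Slc32a1, the vesicular GABA transporter gene, read 11.19, 11.22 and 10.97 against 11.46, 11.59 and 11.26 (-0.31, SE 0.17, adjusted p = 0.414). None of these passed the test. The 3 arrays of each region did not overlap for Slc32a1 or this Slc17a6 probe, as for 22.2% of all tested probes. A second Slc17a6 probe overlapped, with 11.78, 11.94 and 12.17 in target and 11.88, 11.76 and 12.13 in ventral (0.04, SE 0.18, adjusted p = 0.939). The myelin gene Mbp was measured by 5 probes, whose differences ran from -0.30 to 0.55, and Gfap, an astrocyte gene, differed by 0.01 (adjusted p = 0.984). Several defining markers of single cell types were at background: the probes of Th and Dbh (noradrenaline synthesis) and Slc18a3 (acetylcholine loading) were above background on 0 of 9 arrays, and the 3 Chat probes on 1, 2 and 0 of 9. Those 4 genes were not tested.

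Between target and ventral 448 probes were called, 2.46% of those tested. Of these, 281 were higher in target (1.54%) and 167 were lower (0.918%). The median size was 1.35 among higher and -1.17 among lower calls, and 70 probes differed by over 4-fold, 57 of them higher in target. At an unadjusted p below 0.05 there were 3156 probes. For all 448 called probes the 3 target arrays did not overlap the 3 ventral arrays and the difference had the same sign in all 3 mice, which held for 22.2% and 41.2% of all tested probes. In 59 calls no ventral array was above background, and in 19 no target array was. The median difference over all 12801 genes was 0.0327.

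**Figure D1:**
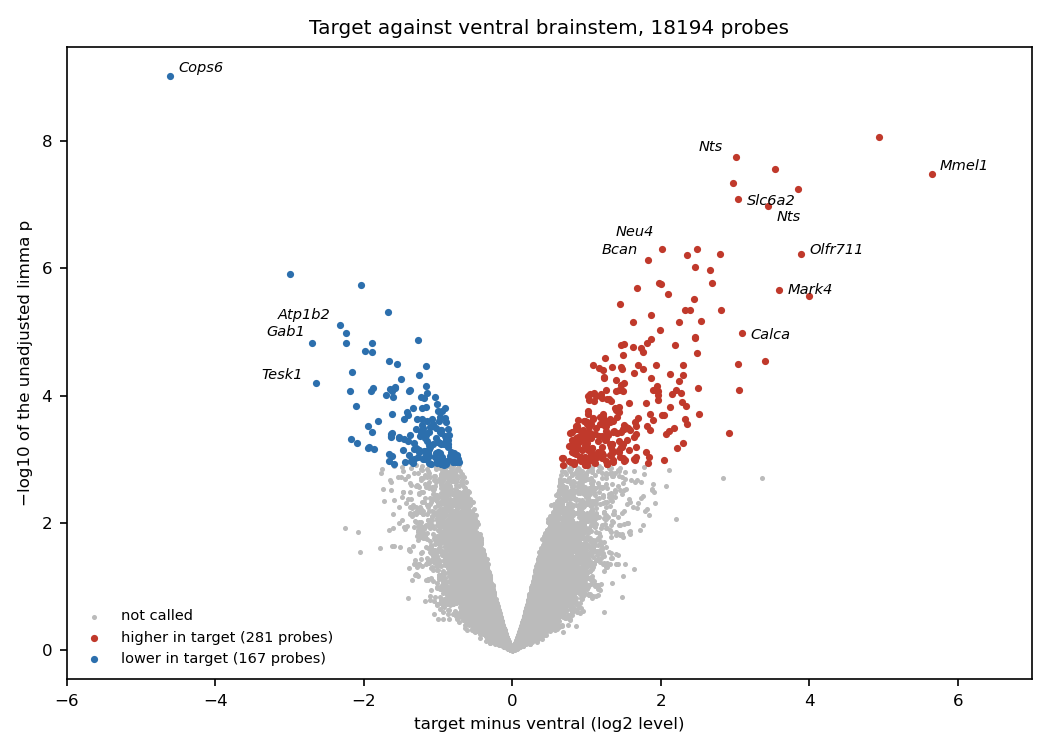
Each point is 1 of 18194 probes, with the target minus ventral difference (log2 level) on the horizontal axis and −log10 of the unadjusted limma p on the vertical axis. The 281 red probes were called higher and the 167 blue probes lower in target, with Mmel1 farthest to the right at 5.65 and Cops6 farthest to the left at -4.61.

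With the mouse as a block 200 probes passed (1.1% of those tested), 133 higher and 67 lower, and 186 of them belonged to the 448 calls. Higher calls made up 62.7% of the 448, 51.5% of the calls without background correction and 74.6% of those with arrays centred on their medians. When only probes above background on all 6 arrays were tested, 455 were called, of which 53.6% were higher. Leaving out single arrays lowered the number of calls: without target array 1, 2 or 3 there were 142, 117 or 91, and without ventral array 1, 2 or 3 there were 164, 238 or 266. Without dorsal array 1, 2 or 3 there were 371, 248 or 256. When only the 6 target and ventral arrays were fitted with the mouse as a block, 15 probes passed. These 15, of which 14 were higher in target and 1 lower, also passed in every other alternative in which they were tested: both probes of Nts, 1 probe each of Slc6a2, Calca, Mark4, Mmel1, Olfr711 and the RIKEN locus 4930503B20Rik, and 6 probes with a clone name or an immunoglobulin segment name, all higher, and Cops6, lower. A further 63 probes lost the call only in that smallest fit.

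Nts, which encodes the neurotensin precursor, was high in target and low in ventral by both of its probes. On target arrays 1, 2 and 3 the brighter probe (7320255) read 9.97, 9.81 and 9.82, and on ventral arrays 1, 2 and 3 it read 6.71, 5.87 and 6.67, with 2 of 3 ventral arrays above background. The dimmer probe (1850095) read 8.19, 8.16 and 8.21 in target and 5.14, 4.99 and 5.40 in ventral, where no array was above background. Every target array lay far above every ventral array for either probe. Within the mice the brighter probe differed by 3.26, 3.94 and 3.15 and the dimmer one by 3.06, 3.18 and 2.81. The brighter probe gave a 10.9-fold higher level in target (3.45, SE 0.23, adjusted p = 0.000213). For the dimmer one the ventral side is only a bound, set on each array at the probe's own level or at the dimmest probe that was above background there, whichever is higher, as for all such values below: the level in target was at least 5.22-fold higher (adjusted p = 0.000108). Fewer cells of a type and less RNA per cell cannot be told apart in these tissue samples. No label states whether Nts was picked for the study because of these arrays.

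The receptors of neurotensin did not pass. Ntsr1 read 5.99, 6.43 and 6.53 in target and 6.29, 5.75 and 6.11 in ventral, so that the regions overlapped (0.27, SE 0.29, adjusted p = 0.701, 1 ventral array at background). Ntsr2, a receptor gene of astrocytes, read 10.98, 11.26 and 10.74 against 11.04, 11.03 and 10.83 (0.03, SE 0.18, adjusted p = 0.955). The 4 probes of Sort1 differed by -0.23 to 0.21, with adjusted p-values from 0.533 to 0.935.

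Calca, the gene of calcitonin and of CGRP, was the next peptide gene. Its probe 6650017 read 7.84, 8.09 and 7.89 in target and 4.83, 4.67 and 5.02 in ventral, where no array was above background. The level in target was at least 4.40-fold higher (adjusted p = 0.00465). Gal, the galanin gene, read 7.74, 7.79 and 8.04 in target and 6.74, 6.54 and 5.99 in ventral, with all 6 arrays above background. Its lowest target array exceeded its highest ventral array. The level was 2.70-fold higher in target (1.44, SE 0.23, adjusted p = 0.0199). That call was lost with the mouse as a block (adjusted p = 0.0572) and without target array 1, 2 or 3 (up to 0.0894).

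Of 17 measured neuropeptide precursor genes these 3 rose in target, 0 fell and 14 did not pass, with a median of 0.114 over the 17 against 0.0327 over all genes. Calca entered the test only through target arrays, where it was high, and Npy only through ventral arrays. Nothing is therefore read here from the count or the median. Genes of a list are taken by 1 probe each, the brightest over the 6 arrays. A call of a dimmer probe therefore does not count for its gene, here and in all lists below. Over all 12801 genes taken this way 2.6% were called, 1.75% higher and 0.851% lower. The 14 others differed by -0.64 (Npy) to 0.43 (Pnoc). Npy, which encodes neuropeptide Y, read 5.25, 5.40 and 5.52 in target, all at background, and 6.03, 5.92 and 6.14 in ventral, all above it (adjusted p = 0.13). Sst, the somatostatin gene, read 8.66, 8.54 and 8.97 against 8.81, 8.27 and 8.73 (0.12, adjusted p = 0.826). Penk, an opioid peptide gene, read 6.80, 6.96 and 5.89 against 6.74, 6.66 and 6.51 (-0.09, adjusted p = 0.939). Scg2 and Chgb, which encode granins of the peptide vesicles, differed by 0.35 and -0.20, with adjusted p-values of 0.603 and 0.608. None of 14 measured neuropeptide receptor genes passed, and their differences ran from -1.10 (Cckbr, a cholecystokinin receptor gene, adjusted p = 0.201) to 0.52.

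The 250 bases before the RefSeq start of the 3 called peptide genes (assembly GRCm38.p6, minus strand for each) are shown since these genes were higher in the same tissue. The searched motifs were the cyclic AMP response element TGACGTCA, its core TGACG, which lies within it, the AP-1 site TGANTCA, the TATA box TATAAA and the GC box GGGCGG, on both strands. Capitals mark matches, and a match is a description of the letters only.
Nts, chr10:102490419-102490668: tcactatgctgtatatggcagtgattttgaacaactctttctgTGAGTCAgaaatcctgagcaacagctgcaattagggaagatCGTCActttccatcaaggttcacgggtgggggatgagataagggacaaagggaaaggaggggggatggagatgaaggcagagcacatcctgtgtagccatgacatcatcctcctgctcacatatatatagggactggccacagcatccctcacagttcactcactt
Calca, chr7:114636358-114636607: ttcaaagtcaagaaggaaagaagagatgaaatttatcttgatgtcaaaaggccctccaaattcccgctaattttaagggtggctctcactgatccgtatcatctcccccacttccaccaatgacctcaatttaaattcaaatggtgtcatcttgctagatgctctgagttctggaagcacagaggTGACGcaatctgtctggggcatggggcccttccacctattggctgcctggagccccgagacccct
Gal, chr19:3414545-3414794: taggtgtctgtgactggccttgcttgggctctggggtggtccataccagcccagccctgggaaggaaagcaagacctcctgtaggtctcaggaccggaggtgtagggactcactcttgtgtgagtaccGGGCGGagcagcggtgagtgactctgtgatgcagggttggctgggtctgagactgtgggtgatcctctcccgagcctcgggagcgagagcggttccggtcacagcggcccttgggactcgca
The Nts window holds TGAGTCA, an AP-1 match, 207 bases before the start, and CGTCA, the core on the other strand, 166 bases before it. The Calca window holds the core TGACG 65 bases before the start. The Gal window holds GGGCGG 122 bases before the start. Of 32851 promoter windows in the RefSeq set, 6.75% hold the AP-1 letters, 17.8% the core, 32.7% the GC box, 12.4% the TATA box and 1.55% the full response element. Neither the full element nor TATAAA was found in the 3 windows.

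Slc6a2, the noradrenaline transporter gene that marks noradrenergic cells, was higher in target by both of its probes. The brighter probe (1070279) read 8.85, 9.20 and 8.78 in target and 6.69, 6.08 and 6.73 in ventral, 5.45-fold higher in target (2.45, SE 0.24, adjusted p = 0.00207). The dimmer probe (5910717) read 7.71, 7.95 and 7.47 in target and 4.74, 4.68 and 4.58 in ventral, where no array was above background, at least 3.76-fold higher (adjusted p = 0.000184). No target array came near a ventral one for either probe. Slc6a2 and Gal were the 2 higher calls among 9 measured noradrenergic genes. The other 7 did not pass and differed by -0.247 to 0.404. The median was 0.264, and 8 of 9 were positive, against 53.6% of all genes. The list mean, which includes the 2 called genes, was 7.31 to 7.62 on target arrays and 6.87 to 6.95 on ventral arrays. Slc18a2, the vesicular monoamine transporter gene, read 6.55, 6.99 and 6.57 against 8.24, 6.35 and 6.26 (-0.25, SE 0.49, adjusted p = 0.847), with 1 ventral array above all target arrays. The defining genes Th and Dbh were at background on all 9 arrays, and Ddc differed by 0.39 (adjusted p = 0.564).

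Of 8 measured genes of cholinergic and cranial motor neurons 2 were higher, Calca and Prima1, and 6 did not pass. The median was 0.303 and all 8 were positive, against 53.6% of all genes. Calca entered the test only through target arrays, where it was high, so nothing is read here from the count, the signs or the median. The 6 others differed by 0.135 to 0.923. Prima1, which encodes the membrane anchor of acetylcholinesterase, read 7.10, 7.74 and 7.75 in target and 6.46, 5.94 and 6.12 in ventral (1.36, SE 0.23, adjusted p = 0.025). Its regions did not overlap, but the call was lost with the mouse as a block (adjusted p = 0.0579) and without target array 2 or 3 or ventral array 2 or 3 (up to 0.105). Chodl read 7.50, 7.75 and 8.36 against 7.0, 7.03 and 6.81 (0.92, SE 0.31, adjusted p = 0.17). Ache, the gene of acetylcholinesterase itself, differed by 0.13 (adjusted p = 0.883) and Prph, the gene of peripherin, an intermediate filament of motor neurons, by 0.20 (adjusted p = 0.714). The list mean was 7.18 to 7.59 on target and 6.37 to 6.71 on ventral arrays. It includes the 2 called genes, of which Calca was above background on no ventral array. Chat and Slc18a3, which define cholinergic cells, were not tested, as given above.

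Serotonergic, glycinergic and other transmitter genes differed little. Tph2, the serotonin-synthesizing enzyme gene of neurons, read 5.76, 5.26 and 6.05 against 6.22, 5.44 and 5.45, above background on 2 target arrays and 1 ventral array (-0.02, SE 0.29, adjusted p = 0.985). Slc6a5, the glycine transporter gene of inhibitory neurons, read 9.11, 9.42 and 9.26 in target and 9.68, 9.65 and 9.89 in ventral by its brighter probe, apart but short of the test (-0.48, SE 0.18, adjusted p = 0.21). None of the 11 measured genes of glutamatergic, GABAergic and glycinergic neurons passed. By their brightest probes, nor did any of 16 GABA-A and glycine receptor genes, 50 potassium and HCN channel genes, 24 sodium and calcium channel genes or 47 genes of synaptic vesicles and release. Single probes of Scn8a (-1.38, limma adjusted p = 0.0301), Cacnb4 (-1.179, adjusted p = 0.0311) and Scn3b (given below) were called. The brightest other probe of each was not, and the Scn8a and Cacnb4 calls were lost with the mouse as a block. Among 20 glutamate receptor genes 1 was higher, Grik4, a kainate receptor subunit gene, with 6.93, 7.11 and 7.09 against 6.27, 5.55 and 5.83 (1.16, SE 0.23, adjusted p = 0.0401, 1 ventral array at background). Its call was lost with the mouse as a block (adjusted p = 0.0668), without any of the 3 target arrays, and without ventral array 2 or 3 or dorsal array 1 or 2 (up to 0.147).

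The largest difference of the comparison was that of Mmel1, a membrane metalloendopeptidase gene related to neprilysin, an enzyme that degrades peptides outside cells. Its probe read 9.80, 10.93 and 10.79 in target and 5.04, 4.77 and 4.76 in ventral, where no array was above background. The target level was at least 26.1-fold higher (adjusted p = 0.000121). Among 24 measured genes that process or degrade peptides, taken by their brightest probes, Mmel1 was the one called higher and Scg5 the one called lower. The median was near 0. Dimmer probes of Pcsk5 (1.635), Lnpep (-1.118) and Dpp6 (-1.016) were also called (limma adjusted p = 0.045, 0.0429 and 0.0467). The brightest probes of these genes were not called, and the dimmer ones lost the call with the mouse as a block. Scg5 encodes a chaperone of a prohormone convertase and read 9.21, 9.38 and 8.98 in target against 10.07, 10.03 and 10.04 in ventral (-0.86, SE 0.16, adjusted p = 0.0322). That call was lost with the mouse as a block (adjusted p = 0.0695), without any 1 of the 6 arrays and without dorsal array 2 or 3 (up to 0.126). Mme, the gene of neprilysin, read 6.27, 6.37 and 6.02 against 5.86, 6.08 and 5.08 (0.54, SE 0.25, adjusted p = 0.314). Cpe and Pcsk2, which encode enzymes that trim precursors such as that of neurotensin, had adjusted p-values of 0.998 and 0.976.

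**Figure D2:**
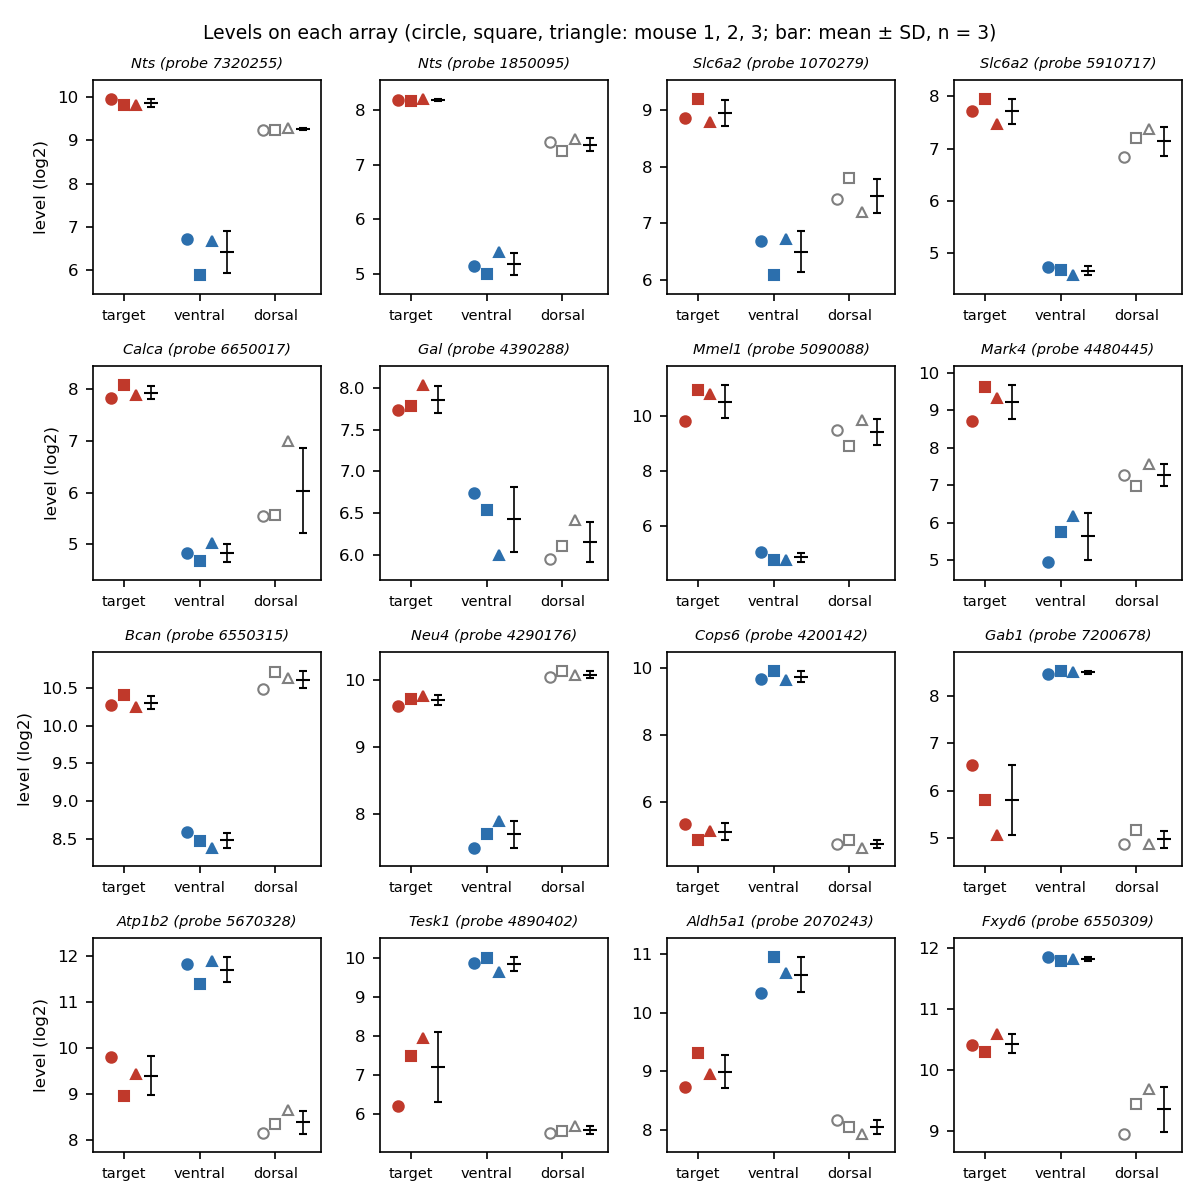
Each panel gives the log2 level of 1 probe on the 3 target (red), 3 ventral (blue) and 3 dorsal (open) arrays, with circles, squares and triangles for mice 1, 2 and 3 and bars for the mean ± SD (n = 3). Nts, Slc6a2, Calca, Gal, Mmel1, Mark4, Bcan and Neu4 lie higher on every target than on every ventral array, and Cops6, Gab1, Atp1b2, Tesk1, Aldh5a1 and Fxyd6 lower.

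Celf1, Syncrip and Eif3l were among the 20 largest higher calls, by 1 probe each. Celf1, which encodes a regulator of splicing and mRNA decay, read 8.88, 8.10 and 8.58 in target and 5.48, 5.73 and 5.95 in ventral, where 1 of 3 arrays was above background (2.81, SE 0.23, adjusted p = 0.000797). Syncrip, the gene of an RNA-binding protein of the hnRNP family, read 9.20, 9.82 and 9.49 against 7.01, 6.91 and 7.19 (2.47, SE 0.29, adjusted p = 0.00536). Eif3l, a translation initiation factor subunit gene, read 8.68, 8.73 and 8.45 against 6.35, 5.67 and 6.67 (2.39, SE 0.25, adjusted p = 0.00264, 1 ventral array at background). For each of these genes the brightest other tested probe disagreed: it differed by -0.05 for Celf1, by -0.06 for Syncrip and by -0.48 for Eif3l, without passing. Those 3 differences therefore belong to single probes. Among 53 splicing regulators and neuronal RNA-binding proteins, taken by their brightest probes, none was higher and 1 was lower, Nova2 (-1.33, adjusted p = 0.0201, 2 of 3 target arrays above background). The Nova2 call was lost with the mouse as a block (0.0546) and without target array 1 or 2 or ventral array 1 or 2 (up to 0.0703).

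Mark4, Tbc1d15, Arhgap27, Grb10, Supt20 and Pole4 were also among the 20 largest higher calls. Mark4, which encodes a kinase of microtubule-associated proteins, read 8.72, 9.61 and 9.33 in target and 4.96, 5.76 and 6.17 in ventral, where 1 of 3 arrays was above background (12.1-fold, 3.59, SE 0.34, adjusted p = 0.00168). Tbc1d15, a Rab GTPase-activating protein gene, read 10.43, 10.11 and 10.12 against 5.66, 7.08 and 7.69 (3.41, SE 0.44, adjusted p = 0.00854, 1 ventral array at background). Its target arrays lay close together, and its ventral arrays were spread widely. Arhgap27, a GTPase-activating protein gene, read 6.86, 7.98 and 8.31 against 4.63, 4.65 and 4.74, all at background, at least 3.77-fold higher (adjusted p = 0.00909). Grb10, which encodes an adaptor of insulin-like receptors, read 9.61, 8.85 and 10.17 against 5.87, 6.29 and 7.33 (3.05, SE 0.45, adjusted p = 0.0142). The Grb10 call was lost without target array 1 or 3 (up to 0.0634), and its brightest other probe differed by 0.51 (adjusted p = 0.221). Supt20, the gene of a subunit of the SAGA histone acetylation complex, read 9.53, 10.28 and 10.20 against 7.75, 7.14 and 6.71 (2.81, SE 0.29, adjusted p = 0.00264). Pole4, a DNA polymerase epsilon subunit gene, read 9.81, 9.87 and 10.20 against 7.64, 7.31 and 7.87 (2.35, SE 0.19, adjusted p = 0.000797).

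Most members of the families of these genes did not pass. Of 22 measured MARK and related polarity kinase genes 2 were higher (Mark4 and Limk2), 1 was lower (Tesk1) and 19 did not pass, with a median of 0.0267. Mark2 and Mark3, which encode close relatives, differed by 0.20 (adjusted p = 0.698) and 0.72 (adjusted p = 0.193). Limk2, a kinase gene of actin dynamics, read 11.81, 11.35 and 11.63 against 10.22, 10.63 and 10.77 (1.06, SE 0.22, adjusted p = 0.0462). Its brightest other probe differed by -0.02, and the call was lost with the mouse as a block (adjusted p = 0.0856) and without any 1 of the 9 arrays (up to 0.157). Among 203 Rab GTPase, TBC and membrane traffic genes 5 were higher and 1 was lower, and among 161 chromatin regulator genes 3 were higher and none lower.

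Cell surface and matrix genes were represented by few members. Bcan, which encodes brevican, a proteoglycan of perineuronal nets and brain matrix, read 10.27, 10.40 and 10.24 in target and 8.58, 8.47 and 8.38 in ventral (3.54-fold, 1.82, SE 0.15, adjusted p = 0.000906). A second Bcan probe differed the same way by 1.23 without passing (adjusted p = 0.0811), and another, dim one differed by -0.44 (adjusted p = 0.692). Sdc3, the syndecan-3 gene of neuronal heparan sulfate proteoglycans, read 12.85, 13 and 12.89 against 11.76, 11.79 and 11.89 (1.09, SE 0.14, adjusted p = 0.00909). For both genes the arrays of a region lay close together and far from those of the other. They were the 2 higher calls among 24 measured perineuronal net and matrix proteoglycan genes, of which none was lower (median 0.0898), and other net genes such as Acan (aggrecan, -0.50, adjusted p = 0.767) and Hapln1 (a link protein, -0.12, adjusted p = 0.892) did not pass. Scn3b, a sodium channel beta subunit gene, read 7.63, 8.04 and 8.15 against 5.93, 5.63 and 4.87, with 1 of 3 ventral arrays above background (2.46, SE 0.29, adjusted p = 0.00522), and its brightest other probe differed by 0.82 (adjusted p = 0.17). Sdk2, a synaptic cell adhesion gene, read 7.09, 7.86 and 7.82 against 4.84, 5.24 and 5.19, all at background, at least 3.46-fold higher (adjusted p = 0.0142). Its call was lost without target array 2 or 3 (up to 0.068), and its brightest other probe differed by -0.15 (adjusted p = 0.855).

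Among axon guidance genes 3 of 41 measured were higher and none was lower (median -0.0289): Sema3f, a secreted repellent, by 1.33, Ephb6, an ephrin receptor, by 1.14, and Robo4, an endothelial receptor of the Robo family, by 0.81. Their adjusted p-values were 0.0171, 0.0436 and 0.0287, and 0.0507, 0.0807 and 0.0606 with the mouse as a block, so that none kept the call. The other tested probe of Robo4 differed by 0.17 (adjusted p = 0.87). Each call was also lost without single arrays: Sema3f without target array 1 or 3 or ventral array 1 (up to 0.0747), and the others without any 1 of the 3 target arrays and several further ones (up to 0.137 for Ephb6 and 0.107 for Robo4).

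Few glial genes passed. Neu4, a sialidase gene listed with oligodendrocyte precursors, read 9.62, 9.72 and 9.77 in target and 7.49, 7.70 and 7.89 in ventral (4.03-fold, 2.01, SE 0.16, adjusted p = 0.000797), while its brightest other probe differed by 0.07 (adjusted p = 0.937). Nkx2-2, a transcription factor gene of the oligodendrocyte lineage and of ventral neural progenitors, read 10.45, 9.55 and 9.83 against 8.42, 8.70 and 8.77 (1.31, SE 0.26, adjusted p = 0.0343). The Nkx2-2 call was lost with the mouse as a block (0.0789), without any 1 of the 6 arrays and without dorsal array 2 or 3 (up to 0.11). Pdgfra, the growth factor receptor that defines these precursors, differed by 0.21 (adjusted p = 0.71), and 14 of the 16 measured genes did not pass and spread evenly around 0. Of 33 myelin and oligodendrocyte genes 1 was higher, Myrf, a transcription factor of myelination (1.67, adjusted p = 0.0366), and none was lower. The Myrf call was lost with the mouse as a block (0.0559) and without any 1 of the 3 target and 3 dorsal arrays or ventral array 2 (up to 0.137), and the other tested probe of Myrf differed by 0.55 (adjusted p = 0.241). Of 33 astrocyte genes 1 was higher (Slc13a4) and 1 lower (Atp1b2), of 19 microglial and leukocyte genes 1 was higher (Lyz1) and 1 lower (Laptm5), and none of 23 endothelial and mural genes passed. A dimmer probe of the astrocyte gene Slc1a2 was also called lower (-0.886, limma adjusted p = 0.0319), but not with the mouse as a block. The brightest other Slc1a2 probe differed by -0.384 without passing (adjusted p = 0.285). The Lyz1 and Laptm5 calls were lost without any 1 of the 6 arrays (up to 0.106 and 0.125), and that of Laptm5 with the mouse as a block (0.0539).

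Slc13a4, a sulfate transporter gene used by meninges and choroid plexus, read 7.69, 8.61 and 7.87 in target and 5.56, 5.63 and 6.14 in ventral, where 1 of 3 arrays was above background (2.28, SE 0.34, adjusted p = 0.0149). That call was lost without target array 2 or 3 or ventral array 1 (up to 0.0578). Of 18 choroid plexus, ependymal and meningeal genes it was the one that passed, and Ttr, the defining choroid plexus gene, read 5.63, 6.55 and 6.50 against 5.25, 5.72 and 7.26 (0.15, SE 0.47, adjusted p = 0.909). The mean level of that list, Slc13a4 included, was 7.54 to 7.66 on target and 7.37 to 7.47 on ventral arrays. Its part in the result was not tested. Hba-a1, a globin gene that marks red cells, read 7.92, 8.12 and 8.25 against 7.58, 7.53 and 7.09 (0.70, SE 0.20, adjusted p = 0.104), and none of 11 blood genes passed. None of 17 cerebellar genes (median 0.26) or 14 cortical, hippocampal and thalamic genes (median 0.244) passed.

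Olfactory receptor genes, of which 59 of the 1087 on the array were measured, held 8 calls, all higher in target, with a median of 0.302 and 46 of 59 positive. In 9 of the 59, 7 of the 8 called genes among them, no ventral array was above background, so that they entered the test through target arrays where they were high, and nothing is read here from the count or the median. Olfr711 read 8.65, 8.55 and 8.57 in target and 4.56, 4.66 and 4.87 in ventral, where no array was above background, at least 6.91-fold higher (adjusted p = 0.000797). The other 7 called members read 5.96 to 7.93 on target arrays, near the low end of the scale, and 4.57 to 5.84 on ventral arrays, of which 1 array of 1 gene (Olfr13) was above background. As bounds they were at least 2.68-fold (Olfr214), 2.87-fold (Olfr64), 3.15-fold (Olfr10), 1.86-fold (Olfr1441), 1.37-fold (Olfr1153) and 1.31-fold (Olfr934) higher. Of the 8, 6 passed in the blocked fit, and Olfr214 and Olfr10 did not (adjusted p = 0.0539 and 0.0527). A second, dimmer Olfr10 probe differed by 1.11 without passing (adjusted p = 0.27). The call of Olfr711 held without any 1 array, and each of the other 7 was lost without at least 1 (up to 0.156). Each of the 8 genes is near in sequence to others of its large family, and which of them a probe reads was not tested. The mean level of the 59 genes was 6.14 to 6.20 on target and 5.66 to 5.72 on ventral arrays.

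**Figure D3:**
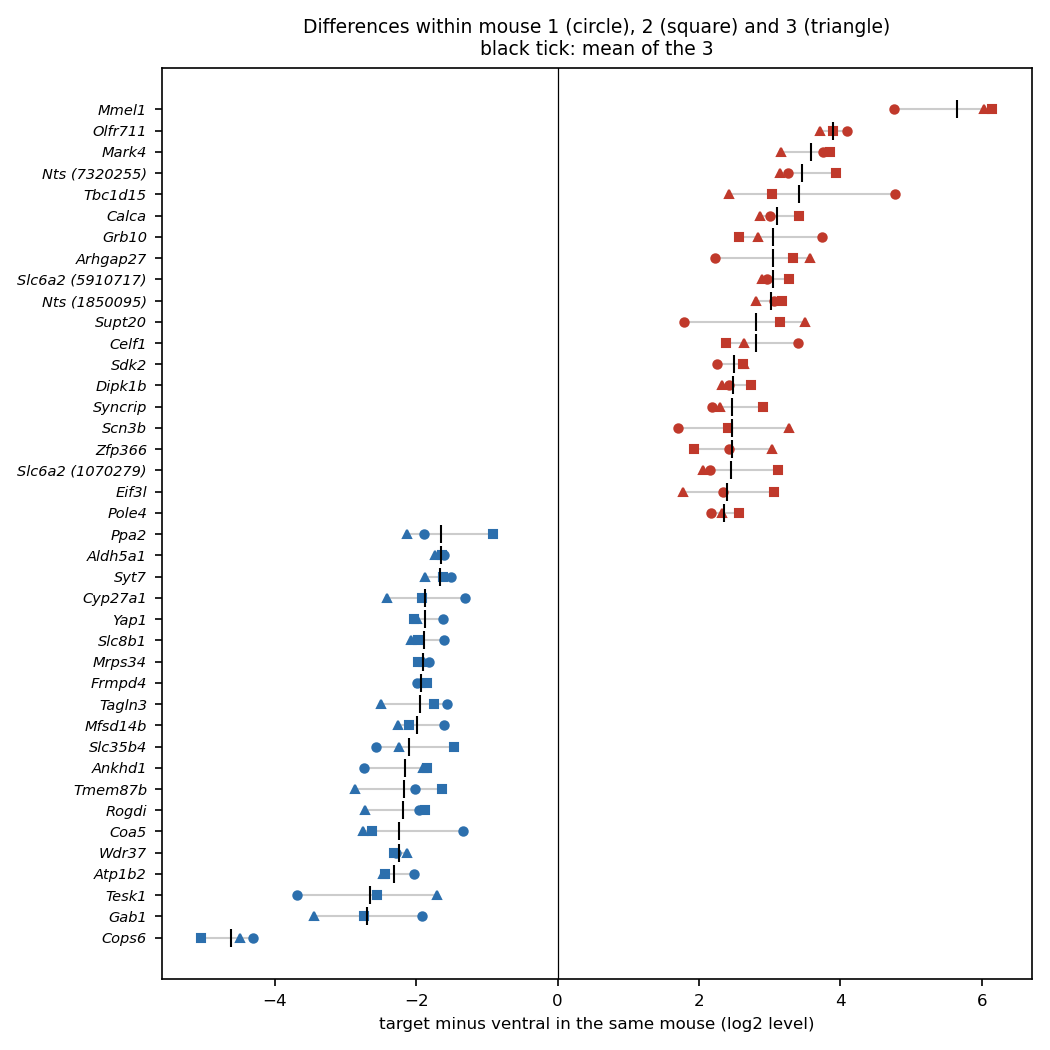
Target minus ventral differences (log2 level) within mouse 1 (circle), mouse 2 (square) and mouse 3 (triangle) are shown for the 20 largest called differences in each direction that also passed with the mouse as a block, with a tick at the mean of the 3. All 3 mice lie on the same side of 0 for every gene, which was a condition of the choice. The spread between mice ranges from narrow for Olfr711 and Nts to wide for Tbc1d15 and Tesk1.

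Cops6, which encodes a subunit of the COP9 signalosome, a complex that acts on ubiquitin ligases, was the gene most reduced in target. It read 5.37, 4.87 and 5.15 in target, where no array was above background, and 9.67, 9.91 and 9.64 in ventral. The level in target was at least 16.2-fold lower (adjusted p = 1.72e-05). Of 51 measured proteasome and COP9 signalosome genes, taken by their brightest probes, it was the one lower call. A probe of Cops7a, another signalosome subunit gene, was also called lower (-1.325, limma adjusted p = 0.0449), but not with the mouse as a block. The brightest other probe of Cops7a differed by 0.113 without passing. Psmc6, a proteasome ATPase gene, was the one higher call, with 9.96, 10.15 and 9.86 against 8.69, 9.17 and 9.17 (0.98, SE 0.19, adjusted p = 0.0366), and the median was -0.0176. The Psmc6 call was lost with the mouse as a block (0.0559), without any 1 of the 6 arrays and without dorsal array 2 or 3 (up to 0.107), and its brightest other probe differed by -0.55 (adjusted p = 0.51). Cul1, the scaffold gene of a class of ubiquitin ligases on which the signalosome acts, read 8.09, 8.10 and 8.06 against 8.88, 8.93 and 8.64 (-0.73, SE 0.15, adjusted p = 0.0453), a call lost with the mouse as a block (0.0859) and without any 1 of the 9 arrays (up to 0.157). Of 240 ubiquitin ligase and deubiquitinase genes 3 were higher and 3 lower, and none of the 6 kept the call with the mouse as a block.

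Genes of sodium pumps and their regulators included 2 lower calls of 8 measured and no higher one (median -0.0974). Atp1b2, the beta-2 subunit gene of the sodium-potassium pump, used by astrocytes and some neurons, read 9.80, 8.95 and 9.43 in target and 11.84, 11.40 and 11.90 in ventral (4.98-fold lower, -2.32, SE 0.26, adjusted p = 0.00379). Fxyd6, a small membrane regulator of the pump, read 10.42, 10.29 and 10.59 against 11.85, 11.78 and 11.82 (-1.38, SE 0.21, adjusted p = 0.0142), a call lost without target array 1 or 2 (up to 0.0591). The ventral arrays of Fxyd6 lay close together, and every target array was lower. The other beta subunit genes Atp1b1 and Atp1b3 differed by -0.07 (adjusted p = 0.858) and -0.13 (adjusted p = 0.727) and did not pass.

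Gab1, an adaptor gene of receptor tyrosine kinases, read 6.54, 5.80 and 5.06 in target, where 2 of 3 arrays were above background, and 8.46, 8.53 and 8.50 in ventral (6.49-fold lower, -2.70, SE 0.32, adjusted p = 0.00572). Lrig1, which encodes a membrane inhibitor of ErbB receptors, read 7.79, 7.80 and 6.88 against 8.95, 9.33 and 9.10 (-1.64, SE 0.30, adjusted p = 0.029). The Lrig1 call was lost with the mouse as a block (0.0606), without any 1 of the 6 arrays and without dorsal array 2 (up to 0.0917). Both were the lower calls among 18 measured genes of ErbB, LRIG and GAB signalling, of which none was higher (median -0.0597), and the related Gab2 pointed the other way (1.01, adjusted p = 0.0627). The receptor genes Egfr, Erbb3 and Erbb4 differed by 0.36, 0.92 and 0.49, with adjusted p-values of 0.687, 0.416 and 0.267. Tesk1, a kinase gene of actin filament turnover, read 6.19, 7.47 and 7.94 in target and 9.87, 10.01 and 9.65 in ventral (6.26-fold lower, -2.65, SE 0.38, adjusted p = 0.0133). Its target arrays spread widely, yet the highest stayed below the lowest ventral array. Yap1, the transcriptional effector of the Hippo pathway, read 5.0, 5.27 and 4.74, all at background, against 6.62, 7.30 and 6.74, at least 2.24-fold lower (adjusted p = 0.00572).

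Aldh5a1, Mrps34, Slc8b1, Coa5 and Ppa2, genes of mitochondrial proteins, were among the lower calls. Aldh5a1, the enzyme gene of the last step of GABA breakdown, read 8.74, 9.31 and 8.95 in target and 10.34, 10.94 and 10.67 in ventral (3.14-fold lower, -1.65, SE 0.21, adjusted p = 0.00856), while its brightest other probe differed by 0.06 (adjusted p = 0.905). Mrps34, a mitochondrial ribosome gene, read 9.68, 9.75 and 9.57 against 11.50, 11.73 and 11.46 (-1.90, SE 0.28, adjusted p = 0.0142), a call lost without target array 1, 2 or 3 (up to 0.0682). Slc8b1, the mitochondrial sodium-calcium exchanger gene, read 5.03, 5.46 and 5.08, all at background, against 6.64, 7.43 and 7.15, at least 2.55-fold lower (adjusted p = 0.00672). For all of them the regions lay apart, as in all 448 calls. Coa5, an assembly factor gene of cytochrome c oxidase, read 5.77, 4.94 and 4.85 against 7.11, 7.56 and 7.60 (-2.24, SE 0.27, adjusted p = 0.00572, 1 of 3 target arrays above background), and its brightest other probe differed by 0.11 (adjusted p = 0.787). Ppa2, a mitochondrial pyrophosphatase gene, differed by -1.64 (adjusted p = 0.0142, 1 of 3 target arrays above background), with its brightest other probe at -0.02, and its call was lost without target array 1 or 3 (up to 0.0678). Lists of mitochondrial genes, taken by their brightest probes, held few calls, against 2.6% of all genes. Of 72 mitochondrial ribosomal protein genes 1 was lower (Mrps34) and 1 higher (Mrpl42). Of 66 mitochondrial carrier and exchanger genes 2 were lower (Slc8b1 and Tomm70a) and none higher. Of 82 respiratory chain and ATP synthase genes 1 was lower (Cox5a, lost with the mouse as a block, adjusted p = 0.0835) and none higher. The medians were -0.0485, 0.0224 and 0.0268.

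Syt7, Rogdi, Tagln3, Frmpd4 and Wdr37 were also among the 20 largest lower calls. As given above, 0 of 47 genes of synaptic vesicles and release passed by their brightest probes, and of 28 neuronal cytoskeleton genes Tagln3 was the one lower call. Syt7, a calcium sensor gene of vesicle release, read 5.44, 5.40 and 5.07 in target, all at background, and 6.94, 7.01 and 6.95 in ventral, at least 2.37-fold lower (adjusted p = 0.00275), while its other, brighter probe differed by -0.26 (adjusted p = 0.625). Rogdi read 6.21, 6.34 and 5.29 against 8.17, 8.22 and 8.02 (-2.19, SE 0.33, adjusted p = 0.0142, 2 of 3 target arrays above background). Tagln3, a neuronal gene of the calponin family, read 9.67, 9.71 and 8.66 against 11.23, 11.47 and 11.15 (-1.94, SE 0.34, adjusted p = 0.0269), a call lost without any 1 of the 6 arrays (up to 0.082). In each case the highest target array lay below the lowest ventral one, and the regions lay apart in all 448 calls. Frmpd4, a scaffold gene of the postsynaptic density, read 4.78, 5.60 and 4.99, all at background, against 6.77, 7.45 and 6.93, at least 2.51-fold lower (adjusted p = 0.0366), and its call was lost without any 1 of the 6 arrays or dorsal array 3 (up to 0.137). Wdr37 read 4.97, 4.60 and 5.48, all at background, against 7.25, 6.91 and 7.61, at least 2.89-fold lower (adjusted p = 0.00465), but another of its probes pointed the other way (0.74, adjusted p = 0.0785). The remaining genes of the 20 were Tmem87b, Ankhd1, Slc35b4, Mfsd14b and Cyp27a1, with differences from -2.17 to -1.88 and 1 to 3 target arrays above background. The brightest other probes differed by 0.19 for Tmem87b, 0.23 for Ankhd1, 0.34 for Mfsd14b and -0.16 for Cyp27a1, and none passed (adjusted p of 0.583 or more). Slc35b4 had no other tested probe. Of these 5 the Mfsd14b call outlasted the loss of any array, and the others were lost without 1 to 8 of the single arrays (up to 0.126).

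**Figure D4:**
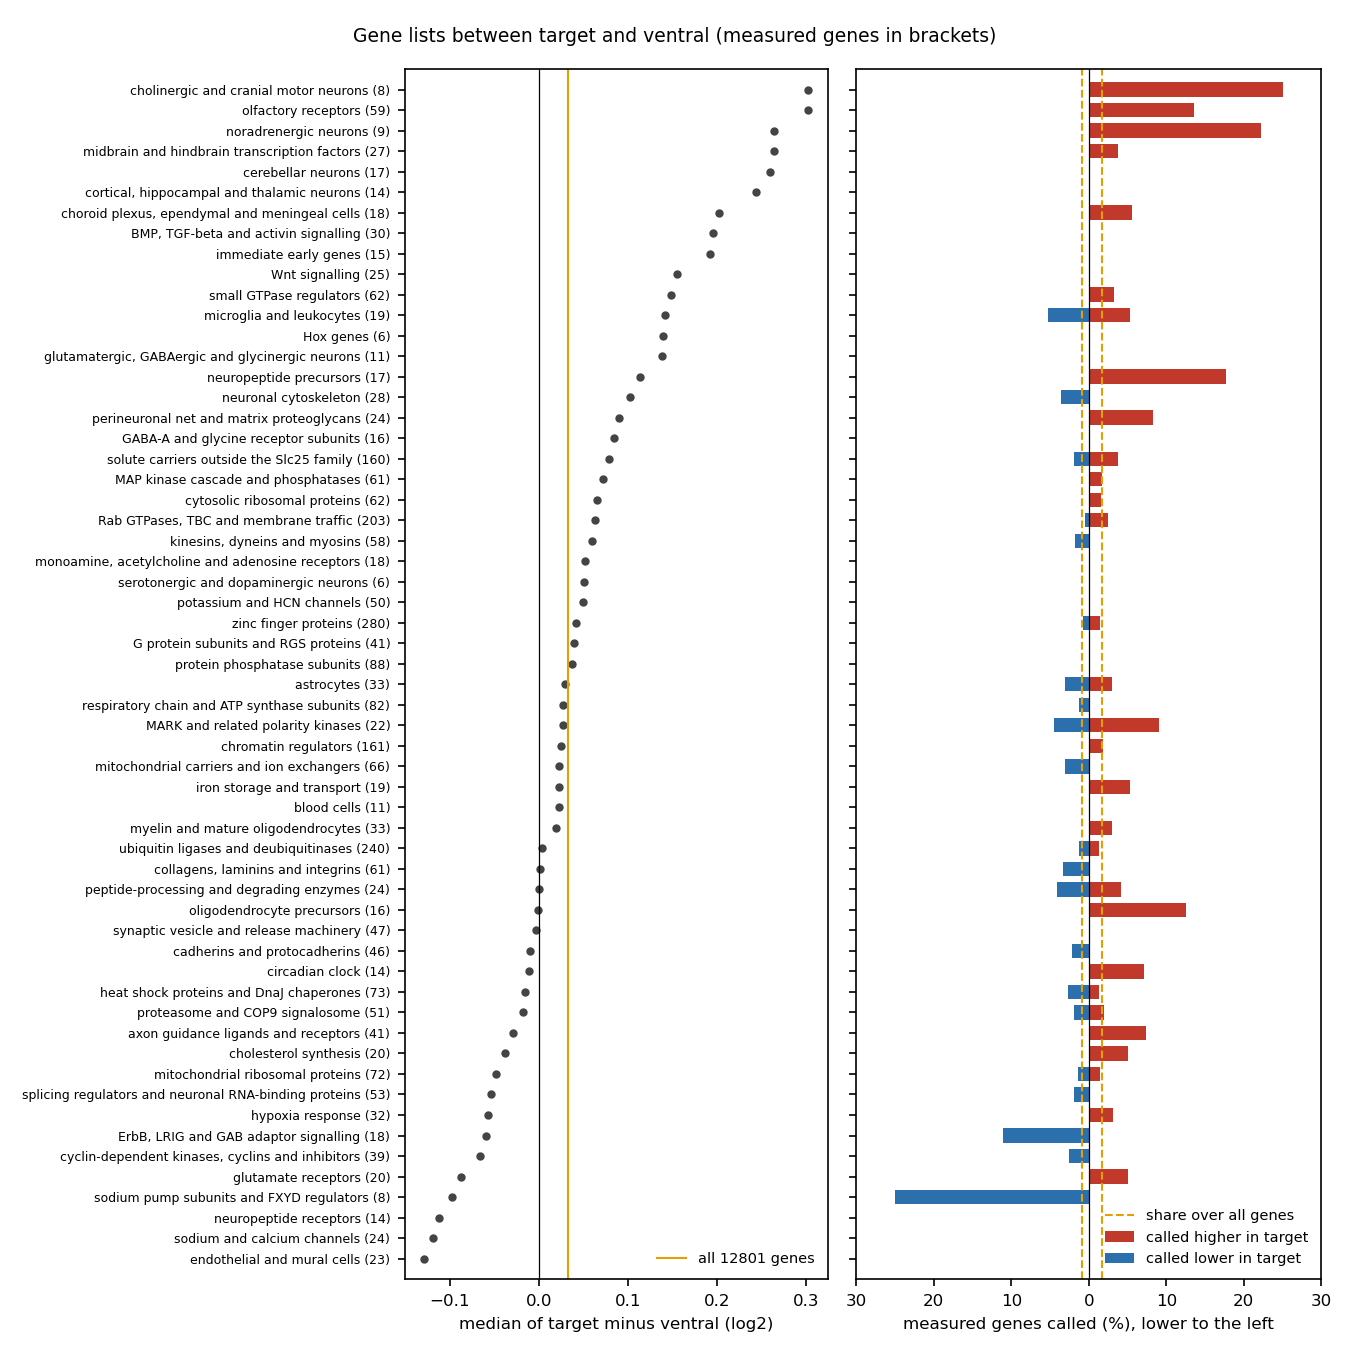
The left panel gives the median target minus ventral difference (log2) over the measured genes of each of 58 lists, with the orange line at 0.0327 for all 12801 genes, and the right panel the percent of measured genes called higher (red, to the right) or lower (blue, to the left), with dashed lines at 1.75% and 0.851% for all genes. List medians run from -0.129 (endothelial and mural cells) to 0.303 (cholinergic and cranial motor neurons), and the bars of small lists rest on 1 to 3 genes.

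Over the 58 gene lists examined, medians ran from -0.129 to 0.303, and 40 lists held at least 1 called gene. Among 160 solute carriers outside the Slc25 family of mitochondrial carriers 6 were higher and 3 lower, with Slc8b1, itself mitochondrial, among the lower ones. In 18 lists no gene was called, among them 88 protein phosphatase subunits, 41 G protein subunits and RGS proteins, 30 genes of BMP, TGF-beta and activin signalling, 25 of Wnt signalling, 18 receptors of monoamines, acetylcholine and adenosine, 15 immediate early genes and 6 Hox genes. Arc, an immediate early gene of active neurons, read 9.20, 8.73 and 9.23 in target and 8.33, 8.02 and 8.28 in ventral (0.85, SE 0.22, adjusted p = 0.0884). Of 14 circadian genes the clock component Per2 passed, with 7.71, 8.54 and 8.03 against 6.57, 7.08 and 6.68 (1.32, SE 0.27, adjusted p = 0.0421), and lost the call with the mouse as a block (0.0579) and without any 1 of the 9 arrays (up to 0.131). Its brightest other probe differed by 0.64 (adjusted p = 0.14).

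A call of a probe was often not shared by another probe of the gene. For 199 genes a further probe was tested beside the called one, and in 97 the brightest of these had the sign of the called one (48.7%, exact 95% binomial interval 41.6 to 55.9%). Among the 70 genes whose call held with the block this was so in 31 (44.3%, 32.4 to 56.7%). The median size was 1.22 for the called probes and 0.232 for the others. At an unadjusted p below 0.05 the other probe went the same way in 19 genes and the opposite way in 20. A total of 245 genes with a called probe had no other tested probe, Mmel1, Calca, Mark4, Olfr711, Cops6, Gab1 and Atp1b2 among them. Nts and Slc6a2 were the genes with 2 probes called in the same direction that also passed with the mouse as a block. The RIKEN locus 3830406C13Rik had 2 lower probes, both lost with the block (adjusted p = 0.0755 and 0.0539). Gnl3, which encodes a nucleolar GTPase, had 1 probe higher (0.93, adjusted p = 0.0436) and 1 lower (-0.96, adjusted p = 0.0283), and both were lost with the block (0.0794 and 0.0559). The 4 Gnl3 and RIKEN calls were each lost without 2 to 8 of the single arrays as well (up to 0.13).

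**Figure D5:**
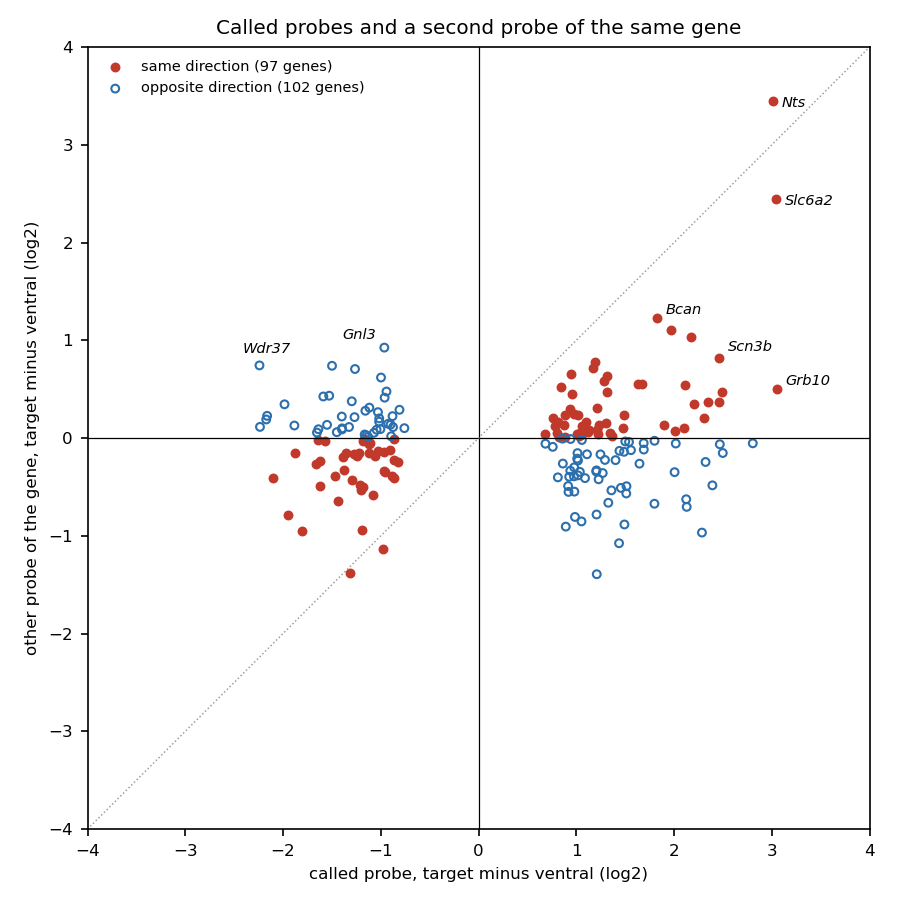
Each point is 1 of 199 genes, with the difference of its called probe (target minus ventral, log2) on the horizontal axis and that of another tested probe of the gene on the vertical axis. The 97 filled points share a direction and the 102 open ones do not, and Nts and Slc6a2 lie near the dotted line of equal differences.

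Levels in the dorsal region are given for the leading genes only as a reference, since the target arrays are shared with the comparison above. The dorsal mean was 9.26 ± 0.03 (SD, n = 3) for the brighter Nts probe, 7.47 ± 0.30 for the brighter Slc6a2 probe, 9.40 ± 0.48 for Mmel1, 6.04 ± 0.83 for Calca, where 1 of 3 dorsal arrays was above background, and 4.77 ± 0.11 for Cops6, where none was. Over the same 18194 probes 20 were called between target and dorsal (0.11%), and 8 of the 448 were among them. Target minus dorsal was 0.607 for the brighter Nts probe, 1.473 for the brighter Slc6a2 probe, 1.101 for Mmel1, 1.899 for Calca and 0.362 for Cops6. None of these passed (limma adjusted p = 0.451, 0.0809, 0.358, 0.108 and 0.572). The calls of these genes therefore set target apart from ventral, and no difference from dorsal was shown. Gal differed from dorsal by 1.71 (SE 0.23, adjusted p = 0.0433), at a dorsal mean of 6.16 ± 0.24. Celf1 differed from dorsal by -1.97 (adjusted p = 0.0433), at a dorsal mean of 10.49 ± 0.16, so that its target level lay between the other two. Cdkn2d, the gene of a cyclin-dependent kinase inhibitor, read 9.44, 9.03 and 8.84 in target and 10.28, 10.28 and 10.11 in ventral (-1.12, SE 0.20, adjusted p = 0.0287), and was 3.24 higher in target than in dorsal (adjusted p = 0.0011). Its call against ventral was lost without target array 2 or 3 or any ventral array (up to 0.112). Trak2, a mitochondrial transport adaptor gene chosen after its values were seen, read 8.41, 8.77 and 8.83 in target and 6.87, 7.65 and 6.99 in ventral (1.5, SE 0.27, adjusted p = 0.028), and was 2.10 higher in target than in dorsal (adjusted p = 0.0433). Its call against ventral was lost without target array 1, 2 or 3 or ventral array 1 or 3 (up to 0.111), and the brighter of its 2 other probes differed by -0.04 (adjusted p = 0.97).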

How the data were processed

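Total RNA of brainstem tissue from 3 mice, 3 regions each, was labelled as biotin cRNA and hybridised to Illumina MouseWG-6 v2 arrays, per the labels' protocols. The authors exported probe intensities, bead numbers (a count of beads that is not a read count) with bead errors, and detection scores, a fraction from 0 to 1, with GenomeStudio 1.6.0, per the file headers. Quantile-normalised intensities were deposited as well. The deposited unnormalised table equalled the raw export and the series matrix equalled the quantile export, each with a largest difference of 0.

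Here the deposited raw intensities were background-corrected with normexp by limma's detection-score form of neqc (offset 16), quantile-normalised over the 9 arrays and taken to log2, since the deposited values carry no log2 scale. All 9 arrays entered 1 limma fit with region as the term, so that the dorsal arrays add to the estimate of the spread. Probes with a detection score above 0.95 on at least 3 of the 6 arrays were tested, with Benjamini-Hochberg adjustment and a limit of 0.05. The replicate number marks the mouse and so pairs the regions. The deviations of target and ventral arrays of the same mouse from their region means correlated at -0.001, 0.162 and 0.135. The fit with the mouse as a block was an alternative, among 20 in all. The scripts were tested on simulated data. Versions were R 4.3.3, limma 3.58.1, Python 3.11.15, pandas 2.3.3 and scipy 1.17.1.

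Probe names came from the array's symbols, brought up to date by the RefSeq table of GRCm38.p6: a current symbol was found for 27760 probes and an older one for 8035, while 9486 keep the name on the array. Array raw medians were 159.8 to 219.3 in target and 165.8 to 230.9 in ventral (exact permutation test, two-sided p = 0.5), and the median probe rested on 43 to 45 beads. The slide and scan of each array are not given in the headers read, and batches of that kind were not analysed here. The gene lists, the probes and the tests were chosen with earlier results of these data known. Genes were named by a rule: the 20 largest calls in each direction that also passed with the mouse as a block and moved one way in all 3 mice, without clone-named loci; up to 4 called members of each list and direction; up to 2 of the largest differences in lists without a call; 23 fixed genes; and genes with at least 2 called probes. Further genes named as members of a list serve to show its range. Some genes are not reported here.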

Additional observations from a re-analysis of the deposited data

How the results depend on the processing

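Of the 448 calls, the number changed with the fit more than with the probe filter. With the mouse as a block (the pairing by mouse) there were 200 calls, 133 higher and 67 lower; with only the 6 target and ventral arrays 155, 108 and 47; and with those arrays and the block 15, 14 and 1. Without background correction there were 857 calls, 441 higher and 416 lower; with median centring 197, 147 and 50; and with trended, robust moderation 888, 503 and 385. An offset of 50 gave 603 calls, with 258 lower, and no probe filter gave 324, with 108 lower. The filter on 3 of 9 arrays gave 365 calls, 239 higher and 126 lower. That on all 6 arrays gave 455, 244 and 211, and array weights gave 414, 272 and 142. Leaving out 1 array gave 91 to 371 calls, 69 to 233 higher and 22 to 138 lower; the fewest came without target array 3. Fewer arrays and fewer residual degrees of freedom enter the 6-array and left-out fits by construction, and the cause of the other changes was not tested. Without background correction differences were smaller, for example 2.20 and 1.36 for the Nts probes (7320255 and 1850095), 3.42 for Mmel1 and -2.58 for Cops6, all still called.

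Probes that were not called and differed little changed sign when single arrays were left out. Over the arrays left out in turn, Ntsr2 probe 2710367 ran from -0.105 to 0.155, Sort1 probe 1470091 from -0.023 to 0.068, Slc17a6 probe 6840709 from -0.064 to 0.143, Gad1 probe 830437 from -0.171 to 0.005 and Gad1 probe 7550053 from -0.01 to 0.275. Likewise Slc6a5 probe 780025 ran from -0.374 to 0.217, Tph2 probe 160168 from -0.199 to 0.241 (0.014 with array weights), Mbp probe 2750601 from -0.031 to 0.15, Gfap probe 1450139 from -0.125 to 0.111 and Ttr probe 2680113 from -0.266 to 0.74. No named probe that was called reversed in any of the 20 alternatives. With the block 46 of the named probes lost their call. For a probe at background on one side the difference is a bound, so that signal over background limits its size.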

Other observations

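Some genes outside the naming rule, chosen after their values were seen, kept their call in all alternatives but the fit of the 6 arrays with the mouse as a block. Bmper, which encodes a secreted protein that binds bone morphogenetic proteins, read 8.87, 8.70 and 8.44 in target and 6.77, 6.77 and 6.54 in ventral (1.97, SE 0.18, limma adjusted p = 0.0015), and it had no other tested probe. Gfra1, the gene of the GDNF co-receptor, read 6.85, 6.92 and 7.33 against 5.19, 5.47 and 5.14, where no array was above background, at least 2.35-fold higher in target (adjusted p = 0.00672). For both genes every target array was above every ventral array, and the regions lay apart in all 448 calls. The dorsal means, 9.13 ± 0.18 and 7.36 ± 0.32 (SD, n = 3), were above the ventral levels too.

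Others of these genes had further probes that did not share the difference. Nsd1, a histone methyltransferase gene, read 9.40, 9.32 and 9.69 in target and 7.47, 7.59 and 7.33 in ventral (2.0, SE 0.19, adjusted p = 0.0015), while its other probes differed by -0.76 and -0.35. Terf2ip, the gene of a telomere-bound protein, read 10.20, 10.33 and 9.99 against 8.39, 8.12 and 7.70 (2.10, SE 0.20, adjusted p = 0.00181), while its 3 other probes differed by -0.54 to 0.10. Among lower calls, Riok3, a RIO kinase gene, differed by -1.55 (SE 0.20, adjusted p = 0.00909), and its other probe by 0.14. Slc18b1, a vesicular polyamine transporter gene, was the largest difference that missed the test: it read 9.85, 10.40 and 10.35 in target and 5.89, 6.99 and 7.62 in ventral (3.36, SE 0.78, adjusted p = 0.061), with target arrays close together and ventral arrays far apart.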
